A study of Mus musculus with 6 samples.

Results

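Oligodendrocyte precursors are dividing glial cells that persist in the adult brain and give rise to the cells that wrap axons in myelin. A set of 10 genes that mark these precursors and the first steps of their differentiation was described in the hippocampus of mice with and without the miR-17-92 cluster, microRNAs cut from 1 long transcript of the host gene Mir17hg. The genes were chosen by name, with earlier results of these data known. All 10 were found among the 37620 gene identifiers of the deposited tables and among the 16432 genes tested. Whole hippocampi came from C57BL/6 mice aged 13 weeks, 3 wildtype and 3 labelled miR17-92 knockout, each from its own litter, and RNA was sequenced from each mouse. The deleted segment, the cells it was deleted in and any Cre driver are not named in the labels.

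Gene counts per library ran from 26439693 to 57246827. CPM below are counts per gene scaled to the library size, with TMM factors. Hippocampal neuron genes were read in every library, with Prox1 of dentate granule cells at 167 to 189 CPM and Neurod6 of pyramidal neurons at 215 to 230 CPM. Wfs1 and Zbtb20, read for the same check, varied more between mice, at 160 to 235 and 743 to 965 CPM. The host transcript Mir17hg held 43, 47 and 36 reads in wildtype and 30, 35 and 37 in knockout, and the 6 hairpins of the cluster held 0 reads in every library, wildtype included, where a count of 0 allows up to 3 reads. These reads therefore do not check the genotype labels. Wildtype replicate 2 stood apart in genes of mature myelin. Summed over 20 genes of mature myelin it reached 4668 CPM, against 3658 to 3945 CPM in the other 5 libraries, and values without it are given below where they matter.

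A precursor divides under platelet-derived growth factor, which it senses through the receptor PDGFRA, and carries the proteoglycan NG2 on its surface. The transcription factors OLIG1, OLIG2 and NKX2-2 hold it in the oligodendrocyte lineage. On leaving the cell cycle it switches on GPR17 and then ENPP6, and TCF7L2 and MYRF drive it towards myelination. In earlier work on mice the miR-17-92 cluster was tied to the number of oligodendrocyte lineage cells. MicroRNAs repress transcripts that pair with their seed, bases 2 to 8 of the mature strand.

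The mature microRNAs of the cluster are shown because their seeds define which of the 10 transcripts could pair with them. They lie on the plus strand of chromosome 14, at chr14:115043684-115044496 from the first to the last of them (RefSeq sequences, GRCm38.p6), inside the host transcript. Capitals mark the seed.
miR-17-5p: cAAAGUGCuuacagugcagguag
miR-20a-5p: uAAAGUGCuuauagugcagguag
miR-18a-5p: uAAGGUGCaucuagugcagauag
miR-19a-3p: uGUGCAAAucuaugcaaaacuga
miR-19b-3p: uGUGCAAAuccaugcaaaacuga
miR-92a-3p: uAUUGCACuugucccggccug
The 6 strands carry 4 different seeds, since miR-17 and miR-20a share one and miR-19a and miR-19b share another.

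Matches to a whole seed were searched on the transcript strand of the longest annotated 3' UTR of each gene (GENCODE M21), as GCACTTT for miR-17 and miR-20a, GCACCTT for miR-18a, TTTGCAC for miR-19 and GTGCAAT for miR-92a. Of the 10 genes, only Pdgfra held any. Its 3' UTR of 3115 bases held 1 match each for the miR-17, miR-18a and miR-19 seeds and 0 for miR-92a. The matches are shown with the bases around them, 5' to 3', the match in capitals.
Pdgfra, miR-17 and miR-20a, 3' UTR bases 2885 to 2891: ggcacgttaactgttGCACTTTt
Pdgfra, miR-18a, 3' UTR bases 1205 to 1211: gatgcttcaacatcaGCACCTTa
Pdgfra, miR-19a and miR-19b, 3' UTR bases 2198 to 2204: tctgtttaccactcaTTTGCACa
Of 14542 tested genes that have a 3' UTR in the annotation, 35.0% matched at least 1 of the 4 seeds and 1.89% matched 3 or more of them. Of the 2430 genes whose 3' UTR is at least as long as that of Pdgfra, 8.11% held 3 or more. With 6-base matches (miRNA bases 2 to 7), 7 of the 10 genes held at least 1, as did 69.9% of all genes with a 3' UTR. A match is a run of letters, and whether it is bound was not measured.

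None of the 10 genes passed the test between genotypes. In edgeR's quasi-likelihood test over all genes 0 of 10 had an adjusted p under 0.05, and percent called over all genes was 0. At an unadjusted p under 0.05 there was 1 of 10, Olig1, on the lower side, where 5.58% of all tested genes were lower and 5.05% higher. DESeq2 called 0 of the 8 genes to which it gave an adjusted p (1.33% of all genes), limma-voom 0 of 10 (0% of all genes) and edgeR's robust fit 0 of 10 (0.0913%). Wildtype and knockout values overlapped for each of the 10 genes, whereas they did not overlap for 16.6% of all tested genes. Log2 folds, knockout over wildtype, were positive for 3 members and negative for 7, with a median of -0.09, against 50.0% positive and a median of 3.93e-05 over all genes tested. The members' median was -0.02 without wildtype replicate 2, -0.04 without wildtype replicate 3 and -0.02 with offsets for base composition (GC content) and transcript length. It stayed close to -0.09 when wildtype replicate 1 or any of the knockout replicates was left out. In whole tissue, fewer cells of a type and less RNA per cell cannot be told apart.

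**Figure D1:**
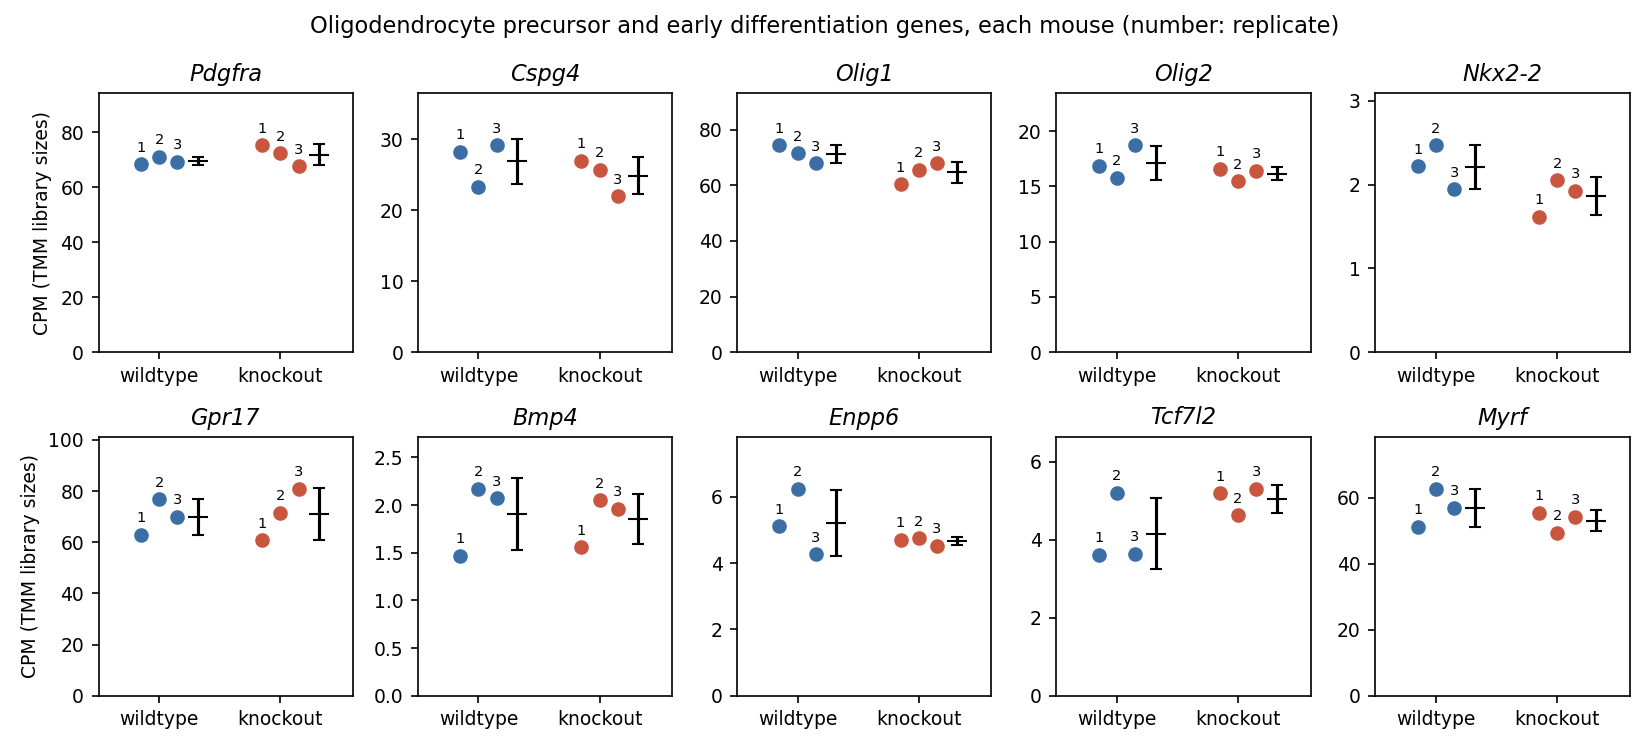
CPM (vertical axis, from 0) of the 10 genes in each mouse, with wildtype in blue and knockout in red. Small digits give the replicate, and black marks the mean and SD of 3 mice. The genotypes overlap in each panel, closely for Pdgfra at 67.7 to 75.3 CPM, and Tcf7l2 has 2 wildtype mice at 3.61 and 3.64 CPM below the other 4 mice.

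Pdgfra (ENSMUSG00000029231, chromosome 5), the receptor that drives precursor division, was among the steadiest of the 10. It measured 68.3, 71.0 and 69.4 CPM in wildtype replicates 1, 2 and 3 and 75.3, 72.4 and 67.7 CPM in knockout replicates 1, 2 and 3. The knockout mice thus held both the highest and the lowest value, with the 3 wildtype mice between them. Means were 69.6 ± 1.4 and 71.8 ± 3.8 CPM (SD, n = 3), a log2 fold of 0.04 (SE 0.05, 95% confidence interval -0.07 to 0.16, adjusted p = 0.789). The fold was 0.01 without knockout replicate 1 and 0.09 without knockout replicate 3. As a ratio of knockout to wildtype, the interval runs from 0.952 to 1.12. The means of Pdgfra differed by less than the SD of the knockout mice and by more than that of the wildtype mice. Over all genes the median log2 fold was 0.003 for the 275 genes with matches to 3 or 4 seeds, 0.01 for the 4819 genes with matches to 1 or 2 and -0.006 for the 9448 genes with none. Those medians carry no GC and length offsets, and repression by the cluster was not tested.

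Cspg4 (ENSMUSG00000032911, chromosome 9) encodes NG2, the surface proteoglycan of precursors, and is also made by mural cells of vessels. Wildtype replicates 1 to 3 held 28.3, 23.3 and 29.2 CPM and knockout replicates 1 to 3 held 27.0, 25.7 and 22.0 CPM. The lowest wildtype mouse, replicate 2, lay below 2 of the 3 knockout mice. The log2 fold of -0.12 (SE 0.10, interval -0.35 to 0.12, adjusted p = 0.718) was -0.21 without wildtype replicate 2 and -0.06 without wildtype replicate 3. Leaving out knockout replicate 1 gave -0.18, and leaving out knockout replicate 3 gave -0.03. Within each library Cspg4 stood at 0.273 to 0.353 of the Pdgfra level per kilobase of exon. Both genes are also read in other cells. Summed mural markers (10 genes, none at 0) ranged from 208 to 233 CPM in wildtype and from 206 to 227 CPM in knockout, with 3 of 10 folds positive. Summed markers of meningeal and perivascular fibroblasts, which can express Pdgfra, ranged from 110 to 126 CPM in wildtype and from 128 to 152 CPM in knockout, with 10 of 10 folds positive and none at 0. Their part in the Pdgfra and Cspg4 values was not tested.

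Among the lineage transcription factors, Olig1 (ENSMUSG00000046160, chromosome 16) came nearest to a difference. It measured 74.4, 71.5 and 67.9 CPM in wildtype replicates 1 to 3 and 60.3, 65.5 and 68.0 CPM in knockout replicates 1 to 3. The groups touched only where knockout replicate 3 met wildtype replicate 3. Means of 71.3 ± 3.3 and 64.6 ± 3.9 CPM (SD, n = 3) gave a log2 fold of -0.14 (SE 0.06, interval -0.27 to -0.01), which did not pass over all genes with edgeR (adjusted p = 0.443) or DESeq2 (adjusted p = 0.438). The fold lay between -0.18 and -0.10 when 1 library was left out. With the GC and length offsets it was -0.04 (interval -0.18 to 0.11).

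Olig2 (ENSMUSG00000039830), its neighbour in the OLIG family on chromosome 16, held 16.9, 15.8 and 18.7 CPM in wildtype replicates 1 to 3 and 16.6, 15.5 and 16.4 CPM in knockout replicates 1 to 3. Wildtype replicate 3 was highest, and the other 5 mice lay close together. The log2 fold of -0.08 (SE 0.08, interval -0.26 to 0.10, adjusted p = 0.758) was -0.01 without wildtype replicate 3, -0.05 without knockout replicate 2 and -0.14 without wildtype replicate 2. Olig1 exceeded Olig2 in every library, by a ratio per kilobase of exon of 4.90 ± 0.58 in wildtype and 4.68 ± 0.38 in knockout (SD, n = 3). Nkx2-2 (ENSMUSG00000027434, chromosome 2), a homeodomain factor that promotes differentiation, was read at 2.22, 2.47 and 1.95 CPM in wildtype replicates 1 to 3 and 1.62, 2.05 and 1.93 CPM in knockout replicates 1 to 3. Only 52 to 110 reads per library lie behind those values, and the log2 fold of -0.25 (SE 0.17, adjusted p = 0.635) had an interval from -0.64 to 0.14. Leaving out wildtype replicate 2 or knockout replicate 1 gave -0.16, leaving out wildtype replicate 3 gave -0.33 and leaving out knockout replicate 2 gave -0.31. An antisense transcript, Nkx2-2os, shares 9.67% of the exon length of Nkx2-2 and averaged 12.8 reads per library. The counting is not stated to use strand, so reads of the shared part cannot be told apart.

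Gpr17 (ENSMUSG00000052229, chromosome 18), a receptor switched on briefly in committed precursors, varied more between knockout mice than between genotypes. It measured 62.9, 76.9 and 69.9 CPM in wildtype replicates 1 to 3 and 60.7, 71.6 and 80.9 CPM in knockout replicates 1 to 3. The lowest and the highest of the 6 mice were both knockouts, and means were 69.9 ± 7.0 and 71.1 ± 10.1 CPM (SD, n = 3). The log2 fold of 0.03 (SE 0.11, interval -0.21 to 0.27, adjusted p = 0.952) changed sign to -0.08 without knockout replicate 3 and to -0.04 without wildtype replicate 1. Lims2, on the opposite strand, shares 3.62% of the exon length of Gpr17, and reads there cannot be assigned without strand.

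Bmp4 (ENSMUSG00000021835, chromosome 14), a ligand that is read in committed precursors and restrains their maturation, was near the low end at 1.47, 2.17 and 2.07 CPM in wildtype replicates 1 to 3 and 1.56, 2.05 and 1.96 CPM in knockout replicates 1 to 3. In both genotypes 1 mouse, replicate 1, lay below the other 2. With 50 to 112 reads per library the log2 fold of -0.03 had an SE of 0.21 and an interval from -0.50 to 0.43 (adjusted p = 0.967), and it ran from -0.19 without wildtype replicate 1 to 0.08 without wildtype replicate 2. Enpp6 (ENSMUSG00000038173, chromosome 8), a choline phosphodiesterase that marks newly formed oligodendrocytes, held 5.11, 6.24 and 4.27 CPM in wildtype replicates 1 to 3 and 4.70, 4.75 and 4.52 CPM in knockout replicates 1 to 3. The knockout mice lay inside the wildtype range, with a coefficient of variation of 2.53% against 19.0% in wildtype. Knockout libraries held 125 to 258 reads of Enpp6, and counting noise alone at that depth exceeds 2.53%. A difference in spread between genotypes was not tested. The log2 fold of -0.17 (SE 0.15, interval -0.50 to 0.17, adjusted p = 0.711) was -0.02 without wildtype replicate 2 and -0.29 without wildtype replicate 3.

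Tcf7l2 (ENSMUSG00000024985, chromosome 19), an effector of WNT signalling needed for precursors to mature, had the highest positive fold of the 10. Wildtype replicates 1 to 3 measured 3.61, 5.21 and 3.64 CPM and knockout replicates 1 to 3 measured 5.19, 4.63 and 5.31 CPM. Wildtype replicate 2 lay among the knockouts, above 2 of them. Means of 4.16 ± 0.91 and 5.05 ± 0.36 CPM (SD, n = 3) gave a log2 fold of 0.28 (SE 0.16, interval -0.09 to 0.65, adjusted p = 0.587). Without wildtype replicate 2 it was 0.48 (adjusted p = 0.390), without wildtype replicate 1 it was 0.19 and none of the left-out libraries made it pass. Neurons of the thalamus, which borders the hippocampus, also express Tcf7l2. Summed thalamus markers (10 genes, none at 0 in all libraries) ranged from 178 to 195 CPM in wildtype and from 181 to 196 CPM in knockout. Of 9 tested folds 5 were positive, and single genes ran from -0.44 to 0.38 in log2 fold, so a level sum does not mean level genes. The part of thalamic cells in the Tcf7l2 values was not tested.

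Myrf (ENSMUSG00000036098, chromosome 19), the factor that turns on myelin genes, measured 51.2, 62.7 and 56.9 CPM in wildtype replicates 1 to 3 and 55.4, 49.4 and 54.2 CPM in knockout replicates 1 to 3. Wildtype replicate 2 was highest and knockout replicate 2 lowest, with the other 4 mice interleaved. The log2 fold of -0.10 (SE 0.08, interval -0.28 to 0.07, adjusted p = 0.671) was -0.03 without wildtype replicate 2, -0.05 without knockout replicate 2 and -0.17 without wildtype replicate 1.

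**Figure D2:**
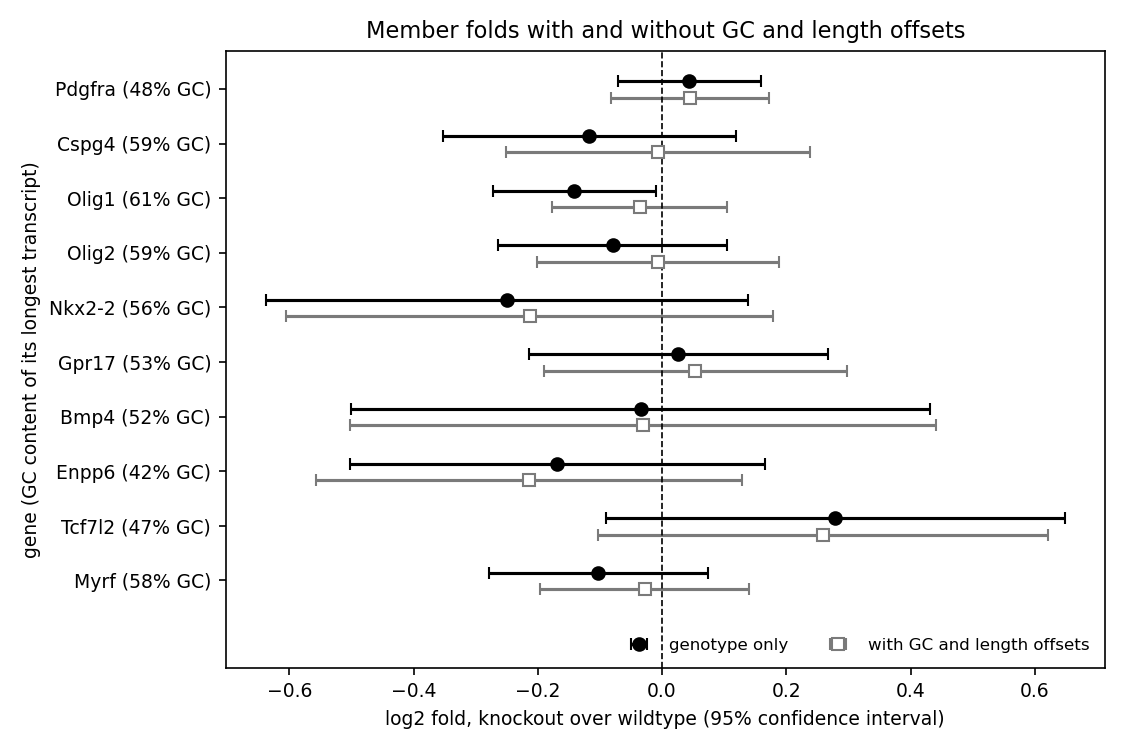
Log2 fold of knockout over wildtype (horizontal axis) for the 10 genes, with 95% confidence intervals from the edgeR fit. Filled circles come from the fit on genotype only and open squares from the fit with GC and length offsets. Percentages give the GC content of each gene's longest transcript. Intervals are narrowest for Pdgfra and Olig1, and the folds of Cspg4, Olig1, Olig2 and Myrf lie nearer to 0 with the offsets.

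Folds of the GC-rich members moved with a correction for GC content and transcript length together, whose parts were not run apart. The longest transcripts of Olig1, Cspg4, Olig2 and Myrf were 61.1%, 59.2%, 58.5% and 57.6% GC, against a median of 49.8% over tested genes. Over all genes, the median log2 fold was 0.06 in the fifth of lowest GC content and -0.08 in the fifth of highest GC content. With GC and length offsets fitted per library, log2 folds were -0.04 for Olig1, -0.01 for Cspg4, -0.01 for Olig2 and -0.03 for Myrf. Enpp6, at 42.3% GC, had -0.21 in place of -0.17, and Pdgfra, at 48.1% GC, stayed at 0.04. Tcf7l2 (0.26) and Nkx2-2 (-0.21) moved little, and 0 of 10 genes passed with the offsets.

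Per kilobase of exon, the 10 transcripts spanned a wide range of levels. Olig1 was highest at 31.4 ± 2.3 CPM per kilobase (SD over 6 libraries), followed by Gpr17 at 13.6 ± 1.5. Pdgfra at 7.05 ± 0.28, Olig2 at 6.58 ± 0.46 and Myrf at 6.42 ± 0.55 came next and overlapped across libraries. Cspg4 stood alone at 2.17 ± 0.24. Bmp4 (0.836 ± 0.13), Enpp6 (0.769 ± 0.11), Nkx2-2 (0.709 ± 0.10) and Tcf7l2 (0.524 ± 0.090) each overlapped the next in order. The order of the last 4 depended on the length used, since Tcf7l2 stood at 1.24 ± 0.21 CPM per kilobase of its longest transcript and was then the highest of them. Per kilobase of the longest transcript the middle group separated too, with Pdgfra at 10.3 ± 0.42 and Myrf at 9.69 ± 0.83, both above Olig2 at 6.58 ± 0.46 in every library. With exon length, Gpr17 stood at 1.55 to 2.31 times Pdgfra, and Enpp6 at 0.0962 to 0.137 times Pdgfra. The Gpr17 ratio is smaller per kilobase of the longest transcript, where Gpr17 averaged 13.6 and Pdgfra 10.3.

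**Figure D3:**
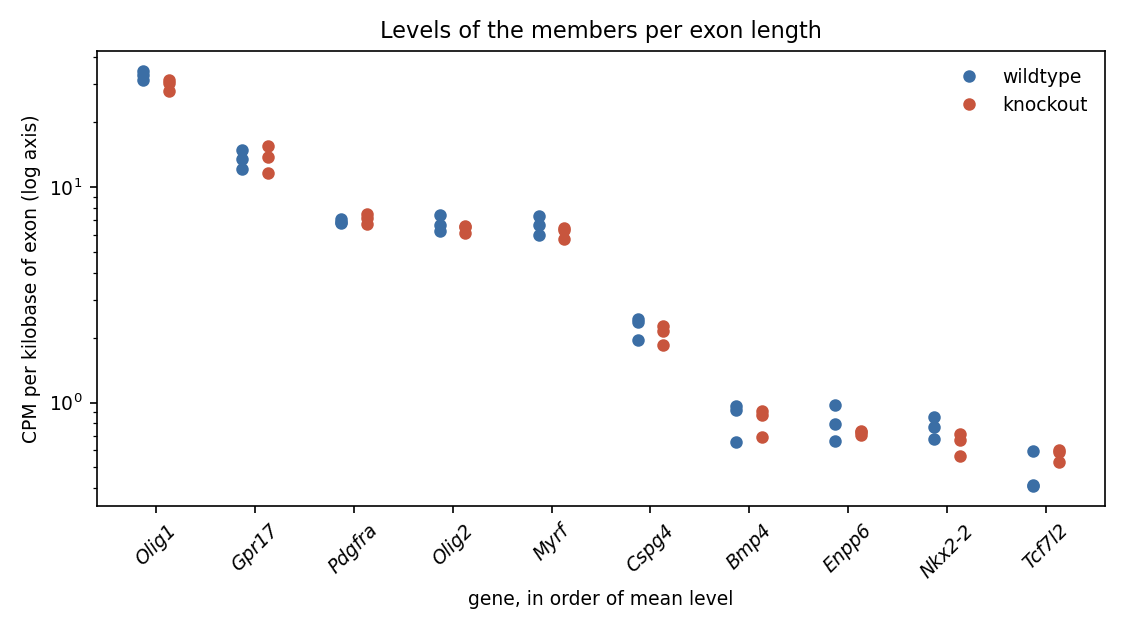
Levels in CPM per kilobase of exon (log axis) for the 10 genes in order of their mean, with 1 point per mouse, wildtype in blue and knockout in red. Olig1 and Gpr17 stand above the rest, Pdgfra, Olig2 and Myrf form a middle group, and Bmp4, Enpp6, Nkx2-2 and Tcf7l2 lie below 1.

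The members also varied between mice of the same genotype. Wildtype replicate 2 held the highest value of 4 members, Nkx2-2, Bmp4, Enpp6 and Myrf. In log2 CPM it lay above the mean of the 6 mice for Tcf7l2 (by 0.20), Gpr17 (0.13), Olig1 (0.08) and, barely, Pdgfra (0.008). The same mouse was highest for 13 of 20 mature myelin genes, for 3 of 17 precursor genes (17.6%) and for 2 of 11 genes of newly formed oligodendrocytes (18.2%), where 17.9% of all tested genes had their highest value. Its Pdgfra (71.0 CPM) lay in the middle of the 6 mice, and for its Cspg4 (23.3 CPM) and Olig2 (15.8 CPM) only 1 mouse was lower. Endothelial markers had their highest value in this mouse for 6 of 10 genes, and mural and microglial markers for 5 of 10 each.

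**Figure D4:**
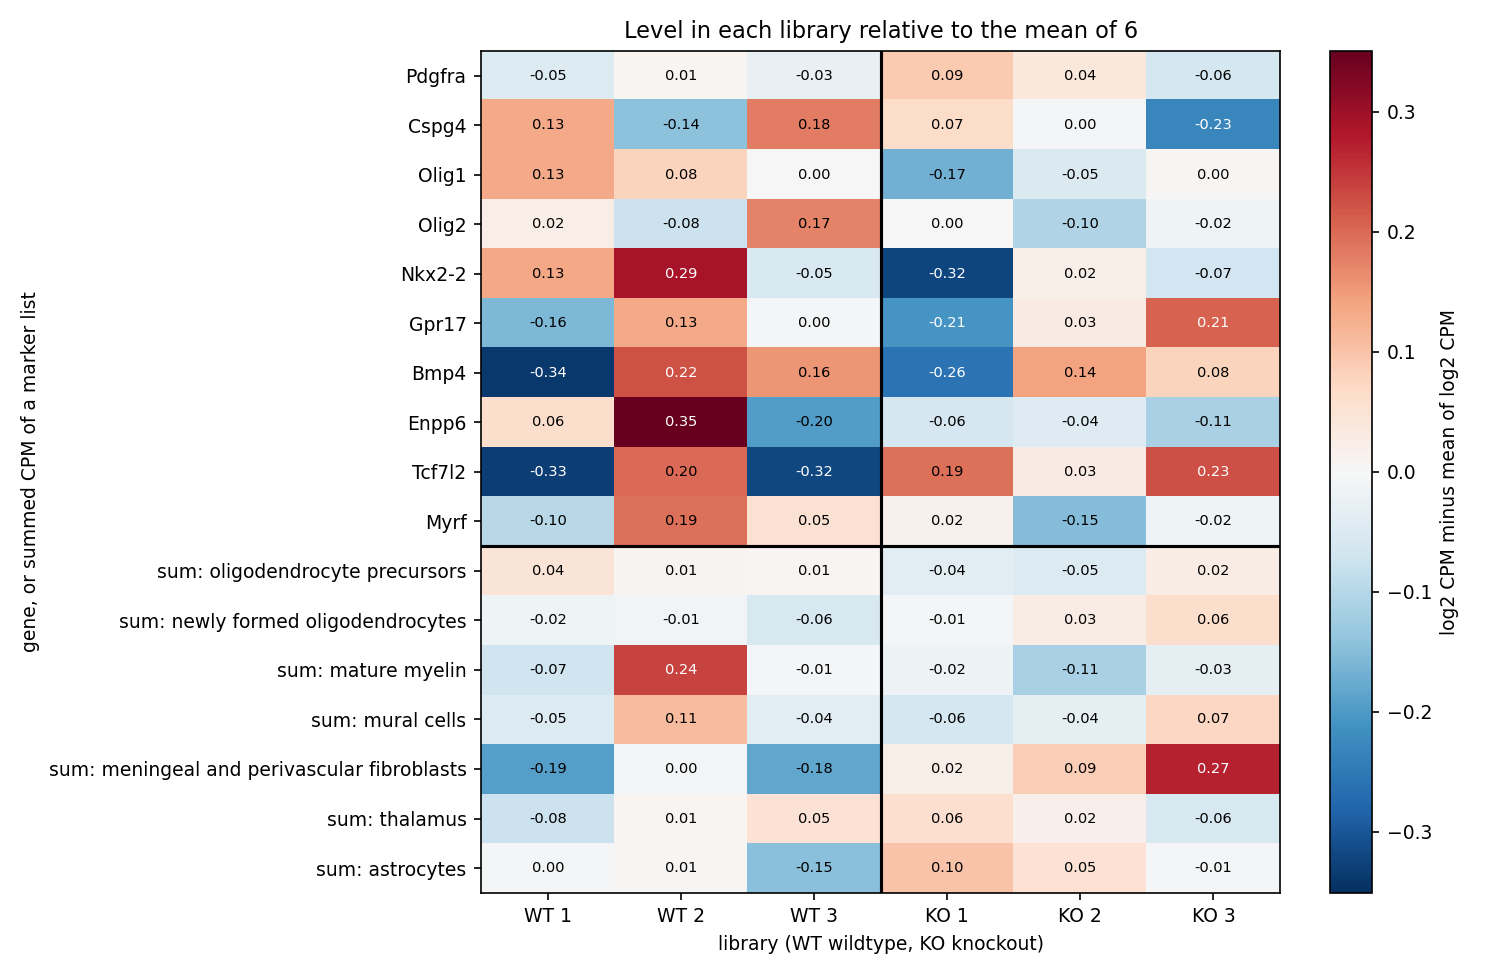
Log2 CPM of each gene (upper rows) and of summed marker lists (lower rows) in each library, minus the mean of the 6 libraries, from blue (low) to red (high). Wildtype replicate 2 is red for mature myelin (0.24), Enpp6 (0.35), Nkx2-2 (0.29) and Myrf (0.19), while Pdgfra lies between -0.06 and 0.09 across the 6 libraries.

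Other genes of the lineage were taken from lists, none of which had a member past the threshold with edgeR. Of 17 tested precursor genes 5 had a positive and 12 a negative log2 fold (median -0.06). At an unadjusted p under 0.05, where 5.05% of all tested genes were higher and 5.58% lower, 1 was higher and 3 were lower. Scrg1 measured 18.7, 16.6 and 17.3 CPM in wildtype replicates 1 to 3 and 25.4, 22.2 and 19.6 CPM in knockout replicates 1 to 3, without overlap, and had a log2 fold of 0.35 (SE 0.10, adjusted p = 0.325). Tnr, which encodes the matrix protein tenascin-R, held 146, 138 and 141 CPM in wildtype and 122, 128 and 131 CPM in knockout, again without overlap, a log2 fold of -0.16 (SE 0.04, adjusted p = 0.328). Emid1, at 2.85 to 4.46 CPM, had a log2 fold of -0.40 (SE 0.13, adjusted p = 0.366). With GC and length offsets the log2 folds of Scrg1, Tnr and Emid1 were 0.30, -0.13 and -0.28. The interval of Emid1 then ran from -0.57 to 0.007. These are whole-tissue values, and the cells behind the Scrg1, Tnr and Emid1 reads were not measured. The median of this list was -0.03 with GC and length offsets, -0.12 without knockout replicate 3 and -0.03 when wildtype replicate 1, knockout replicate 1 or knockout replicate 2 was left out. Of the 17 genes 4 did not overlap between genotypes, against the 16.6% given above for all genes.

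Genes of newly formed oligodendrocytes had 8 of 11 positive folds (median 0.06, or 0.009 without wildtype replicate 3), with 1 higher and 0 lower at an unadjusted p under 0.05, where 5.05% of all tested genes were higher. That gene was Elovl6, a fatty acid elongase, with 74.7, 75.3 and 85.3 CPM in wildtype and 85.0, 91.8 and 101 CPM in knockout, a log2 fold of 0.24 (SE 0.08, adjusted p = 0.339). Rap2a (0.09) and the calcium channel gene Itpr2 (-0.10) had the next smallest p, with adjusted p of 0.483 and 0.584. Mature myelin genes had 4 of 20 positive folds (median -0.13, or -0.04 without wildtype replicate 2). At an unadjusted p under 0.05, where 5.58% of all tested genes were lower, 0 were higher and 1 was lower. That gene was Mag, a myelin glycoprotein, at 90.1, 126 and 111 CPM in wildtype and 92.8, 87.3 and 92.4 CPM in knockout. Mbp, which encodes myelin basic protein, had a log2 fold of -0.15.

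The signals that act on the members were described in the same way. Of the PDGF genes (5 tested, 2 positive), Pdgfd had a log2 fold of 0.53 (SE 0.19, adjusted p = 0.388), at 3.71 to 5.30 CPM in wildtype and 4.82 to 6.99 CPM in knockout, while the receptor Pdgfrb of mural cells had -0.17 and Pdgfc -0.17. BMP receptors, SMADs and the ID and HES inhibitors had 10 of 14 positive folds (median 0.07). Id4, an inhibitor of precursor differentiation that astrocytes express too, held 33.7, 39.1 and 35.3 CPM in wildtype and 42.0, 43.1 and 40.7 CPM in knockout, without overlap, a log2 fold of 0.22 (SE 0.06, adjusted p = 0.330). Bmpr1a and Smad5 followed at 0.14 and 0.13. Summed astrocyte markers ranged from 5969 to 6632 CPM in wildtype and from 6581 to 7081 CPM in knockout, with 10 of 10 folds positive and none at 0, and their part in the Id4 values was not tested.

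WNT and beta-catenin partners of Tcf7l2 had 3 of 12 positive folds (median -0.07, or -0.03 with GC and length offsets). The related factors Tcf7 and Lef1 had log2 folds of -0.56 (SE 0.15, adjusted p = 0.303) and -0.44 (SE 0.18, adjusted p = 0.454), against the positive fold of Tcf7l2. Tcf7 was read at 2.54 to 2.86 CPM in wildtype and 1.71 to 1.93 CPM in knockout. Apc2 had a log2 fold of -0.22 (SE 0.05, adjusted p = 0.286), passed with DESeq2 (adjusted p = 0.0258) and stood at -0.08 with GC and length offsets. Partners of the lineage factors had 6 of 13 positive folds (median -0.01), with Nkx6-2 at -0.41, Zfp24 at 0.13 and Zeb2 at -0.12. With GC and length offsets Nkx6-2 stood at -0.26 (interval -0.62 to 0.09), Zfp24 at 0.07 and Zeb2 at -0.15.

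Receptors, ligands and other genes that act on differentiation, most of them as brakes, had 2 of 12 positive folds (median -0.06, or -0.02 with GC and length offsets). Those were the Notch ligand Jag1 (0.10) and Rtn4 (0.04), which encodes Nogo, an inhibitor of axon growth. At an unadjusted p under 0.05 there were 0 higher and 3 lower, where 5.58% of all tested genes were lower. Notch1, whose signal keeps precursors from maturing, measured 43.7, 38.4 and 38.8 CPM in wildtype and 31.6, 33.3 and 28.1 CPM in knockout, without overlap. Its log2 fold of -0.38 (SE 0.08) did not pass with edgeR (adjusted p = 0.227) and passed with DESeq2 (adjusted p = 0.00420). Lingo1, a brake on differentiation, and the muscarinic receptor Chrm1 had log2 folds of -0.15 and -0.08, and adjusted p of 0.400 and 0.468 with edgeR. With GC and length offsets the log2 folds of Notch1, Lingo1 and Chrm1 were -0.29, -0.08 and -0.05. Notch1, Lingo1 and Chrm1 are read in neurons and other cells as well, so these whole-tissue values are not values of precursors.

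Markers of other cells served as a check of what else the tissue held. Endothelial markers had 2 of 10 positive folds (Ly6c1 0.38, Cldn5 -0.32, Kdr -0.25) and microglial markers 3 of 10 (Aif1 0.88, Trem2 -0.37, C1qa -0.17). Named genes of the other cell lists were Slc13a4 (0.76), Ogn (0.71) and Col1a2 (0.36) of fibroblasts, Abcc9 (0.43), Kcnj8 (0.49) and Pdgfrb of mural cells, Plekhg1 (-0.23), Lef1 and Calb2 (0.13) of the thalamus list, and Gjb6 (0.58), Fam107a (0.41) and Slc4a4 (0.19) of astrocytes. These are log2 folds, and none passed with edgeR. With DESeq2, 7 of them passed, namely Gjb6 (adjusted p = 2.96e-10), Fam107a (2.01e-08), Aif1 (0.000136), Slc13a4 (0.00928), Slc4a4 (0.0159), Ogn (0.0181) and Ly6c1 (0.0374). DESeq2 called 1.33% of all genes to which it gave an adjusted p. The named genes were picked for the smallest p of their list in these same data, so their count is not a share of the lists.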

How the data were processed

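The authors deposited raw read counts per Ensembl gene, 1 table per mouse. The submitters' processing notes name build mm9 and, with no roles, the tools STAR 2.3.0e, HTSeq, SAMtools, DESeq2 and FastQC 0.10.1. The annotation and strand setting were not given in the sources used here. The 5 rows that name no gene held 38.0% to 40.3% of each total and were left out. GENCODE M21 on GRCm38 gave names (32897 identifiers matched), lengths, GC content and 3' UTRs, so no coordinates of counted genes are given. The test was edgeR 4.0.16 (R 4.3.3) on genotype, after filterByExpr and TMM scaling, with p adjusted over all genes (Benjamini-Hochberg) at 0.05. Intervals come from that fit and a log2 fold's SE is derived from its F statistic. Scripts were tested on simulated counts. Replicates of a group differed by more than counting noise (chi-square per degree of freedom 6.40 to 12.1). Same-numbered mice came from different litters, so numbers pair nothing.

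Alternatives were other scaling, filters and tools (DESeq2 1.42.0, limma 3.58.1), GC and length offsets (loess), a replicate block, other thresholds and leaving out each library. All 10 members and, per list, up to 3 genes of smallest p were named, except 1 gene not reported here. The 14 lists held 163 distinct genes, of which 161 matched. Members and lists were chosen with earlier results of these data known.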

Additional observations from a re-analysis of the deposited data

How the results depend on the processing

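Under 16 alternatives, 0 of the 10 members passed, and the smallest adjusted p of any member was 0.373 (Olig1, without wildtype replicate 3, edgeR). Of 160 member folds recomputed, 155 kept their sign. The other 5 came from leaving out 1 library, where Gpr17 ran from -0.082 to 0.13 and Bmp4 from -0.19 to 0.077. Over all genes the count called was 62 without a filter, 164 with DESeq2, 15 with the robust fit, 18 at an adjusted p of 0.10 and 0 to 17 without 1 library (17 without knockout replicate 3, 16 without wildtype replicate 2), against 0. Over the 161 matched genes of the related lists it was 5, 10 and 3 in the first 3 of these. DESeq2 called 1.33% of all genes to which it gave an adjusted p, and the robust fit 0.0913% of all genes tested. The list count was 0 to 2 without 1 library (2 without knockout replicate 3, 1 without wildtype replicate 2). The cause was not tested. The highest member level per kilobase was 59.9 times the lowest, or 34.5 times with the longest transcript as length. Members with a seed match numbered 1, or 7 with 6 bases, a shorter and so more frequent match. Across genes, the deviations of mice with the same number had correlations of -0.10, -0.02 and -0.15. A replicate block called 0 genes, 0 members and 0 list genes. DESeq2 gave no adjusted p for Nkx2-2 and Bmp4. Intervals were widest for Nkx2-2, Bmp4, Enpp6 and Tcf7l2, the members with the fewest reads.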
